A study of Rattus norvegicus with 10 samples.

Results

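The globin and erythroid genes of rat liver were followed in 10 RNA sequencing libraries from the offspring of normally fed or calorie-restricted dams. The set holds 5 of the 12555 genes of the deposited table: the alpha globin genes Hba-a2 and Hba-a3, the beta globin gene Hbb-b1, the erythroid enzyme gene Alas2 and the globin chaperone gene Ahsp. They were chosen by symbol, as Ahsp, Alas2 and every symbol that begins with Hba or Hbb, and the limit of 10 genes set for the choice was not reached. All 5 passed the filter on low counts. The 5 normal libraries came from the young of normally fed dams, and the 5 restricted libraries from the young of dams on a diet with 30% fewer calories throughout gestation, a rat model of birth small for gestational age. All rats are labelled wild type, and the sources used here give no strain, sex, age, litter or time of collection for them. The sample labels call the material a hepatocyte cell line, whereas the description of the series calls it liver tissue.

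Hemoglobin carries oxygen in red blood cells and is built of alpha and beta globin chains, each holding a heme group. In developing red cells, ALAS2 makes the first precursor of heme, whereas most other cells, hepatocytes among them, use ALAS1 for this step. AHSP binds free alpha chains and keeps them from precipitating before they join beta chains. The liver makes red cells before birth in rodents, and globin transcripts in later liver are usually read as those of circulating red cells or of remaining red cell precursors.

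The stretches of DNA before the start sites are shown to compare the members' promoters, which yield no reads themselves. Below are the 250 bases before the start of each gene in the RefSeq annotation of build GRCr8, matched by symbol and printed 5′ to 3′ on the strand of the gene. Of the 5 members 4 matched, and Ahsp had no entry. The table names its Hba-a2 row "hemoglobin alpha, adult chain 1", and RefSeq gives Hba-a2 as an older name of Hba-a1, so the stretches of both genes are shown. Its Hba-a3 row is named "hemoglobin alpha, adult chain 2", so which alpha copy that row counts is open too. Capitals mark matches on either strand to a GATA motif (the letters AGATAA, the letters TGATAA, the letters AGATAG or the letters TGATAG), to the box CACCC, to the box CCAAT, to a TATA motif (the letters TATAAA or the letters CATAAA) or to an NF-E2 motif (the letters TGACTCA or the letters TGAGTCA).
Hba-a1 (chr10:15842581-15842830, minus strand): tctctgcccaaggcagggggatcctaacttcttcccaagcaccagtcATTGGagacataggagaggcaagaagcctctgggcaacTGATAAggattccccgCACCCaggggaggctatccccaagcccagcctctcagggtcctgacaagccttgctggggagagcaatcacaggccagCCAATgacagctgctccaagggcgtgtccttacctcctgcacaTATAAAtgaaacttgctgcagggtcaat
Hba-a2 (chr10:15829139-15829388, minus strand): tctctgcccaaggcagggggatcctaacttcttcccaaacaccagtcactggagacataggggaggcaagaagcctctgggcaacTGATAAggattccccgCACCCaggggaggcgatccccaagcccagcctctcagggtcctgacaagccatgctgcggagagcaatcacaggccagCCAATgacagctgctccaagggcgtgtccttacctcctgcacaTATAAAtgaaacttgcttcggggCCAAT
Hba-a3 (chr10:15816944-15817193, minus strand): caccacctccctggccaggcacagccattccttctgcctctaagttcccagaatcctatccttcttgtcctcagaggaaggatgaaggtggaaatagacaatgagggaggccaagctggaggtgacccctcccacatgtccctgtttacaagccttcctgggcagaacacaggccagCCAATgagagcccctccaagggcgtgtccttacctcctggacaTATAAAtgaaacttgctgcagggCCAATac
Hbb-b1 (chr1:167643521-167643770, minus strand): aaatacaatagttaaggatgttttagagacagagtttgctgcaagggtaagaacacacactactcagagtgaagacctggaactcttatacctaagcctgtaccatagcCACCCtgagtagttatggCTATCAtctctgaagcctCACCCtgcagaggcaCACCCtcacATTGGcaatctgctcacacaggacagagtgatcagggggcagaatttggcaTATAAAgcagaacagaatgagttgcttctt
Alas2 (chrX:22895200-22895449, plus strand): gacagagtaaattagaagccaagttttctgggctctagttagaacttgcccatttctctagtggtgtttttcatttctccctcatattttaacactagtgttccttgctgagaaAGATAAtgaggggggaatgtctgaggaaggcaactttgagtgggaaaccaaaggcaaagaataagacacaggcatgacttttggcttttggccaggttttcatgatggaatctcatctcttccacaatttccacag

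The stretches of Hba-a1 and Hba-a2 differed by 9 edits in 250 bases, and those of Hba-a2 and Hba-a3 by 90. Hbb-b1 differed from its neighbour Hbb-b2 by 7 edits, from Hbbl1 by 11, from Hbb-bs by 16 and from Hbb by 99. A GATA motif stood in 4 of the 5 stretches shown, at 165 bases before the start (position -165) in Hba-a1 and Hba-a2, at -123 in Hbb-b1 and at -136 in Alas2; of 33469 rat promoters of this length 27.0% held one. The CACCC box stood in 3 of the 5 (49.2% of all promoters), in 3 copies in Hbb-b1, with the CCAAT box in 4 (34.0%), a TATA motif in 4 (22.0%) and an NF-E2 motif in 0 (4.05%). Matches of 1 motif did not overlap those of another. These are matches of letters only.

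What each globin row counts is uncertain. The lengths implied by the ratio of the deposited counts to the deposited FPKM (fragments scaled by library size and gene length) were 5.36 kb for Hba-a2, 7.06 kb for Hbb-b1, 0.549 kb for Hba-a3, 0.828 kb for Ahsp and 1.95 kb for Alas2. Globin messenger RNAs are known to be short, so the lengths behind the Hba-a2 and Hbb-b1 rows were those of larger gene models. The sources used here do not say how reads shared by several globin genes were counted, and the globin rows are therefore reported as uncertain in how they divide reads among copies. Other globin genes, such as Hbb and Hba-a1, are not analysed here.

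Depth was 14936156 to 16105083 total counts per normal library and 15052166 to 22104957 per restricted library. Kdm5d, a histone demethylase gene on the Y chromosome, had 280 to 392 reads in each normal library, 309 in restricted 5 and 0 in restricted 1 to 4, so likely sex ran with diet in 9 of 10 libraries. At a floor of 3 counts per library, the 0 in restricted 1 to 4 leaves room for 0.134 to 0.207 CPM (counts scaled by TMM-corrected library size). Results are therefore given also without restricted 5 and for restricted 5 against the normal libraries. In the latter comparison restricted 5 is a single library assumed to vary like the normal ones, whose spread alone gives its SE and p-values. Albumin (Alb), the main product of hepatocytes, had 99849 to 155972 CPM in the 10 libraries, and the summed level of 7 hepatocyte markers was 165887 to 197404 CPM in normal and 146820 to 223800 CPM in restricted libraries. Serpina1, also a hepatocyte marker, had only 0.459 to 1.44 CPM. Ttr, a plasma carrier protein gene, was the hepatocyte marker that passed the test, with a log2 fold change of -0.71 ± 0.18 (SE, adjusted p 0.0497 in edgeR). It missed the threshold in 8 of the 10 fits without a library, with an adjusted p of up to 0.131. Tf, the plasma transferrin gene, had -0.20 ± 0.16 (adjusted p 0.507).

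Within the set, Ahsp was the gene that differed between the diets beyond the spread of the libraries, and it was higher in every restricted library than in any normal library. The globins and Alas2 were on average higher in the restricted group too, but restricted 4 and 5 lay among or below the normal libraries and none of the 4 passed the test. Log2 fold changes, restricted minus normal, come from edgeR's quasi-likelihood test with Benjamini-Hochberg adjustment over 12367 genes, and a gene is called at an adjusted p under 0.05. Of all genes tested 4.09% were called, 1.87% higher and 2.22% lower in the restricted group, against 1 of 5 members, called higher. DESeq2 also called 1 of 5 members, Ahsp, as higher, against 4.31% of genes. All 5 members had a positive log2 fold change, as did 52.3% of genes, and 1 of 5 had an unadjusted p under 0.05, against 20.1% of genes in either direction and 10.2% as higher. Whether each library came from a separate animal is not stated in the labels, so p-values rest on library-to-library spread, which may be technical. In bulk liver, more cells of a type and more RNA per cell cannot be told apart.

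**Figure D1:**
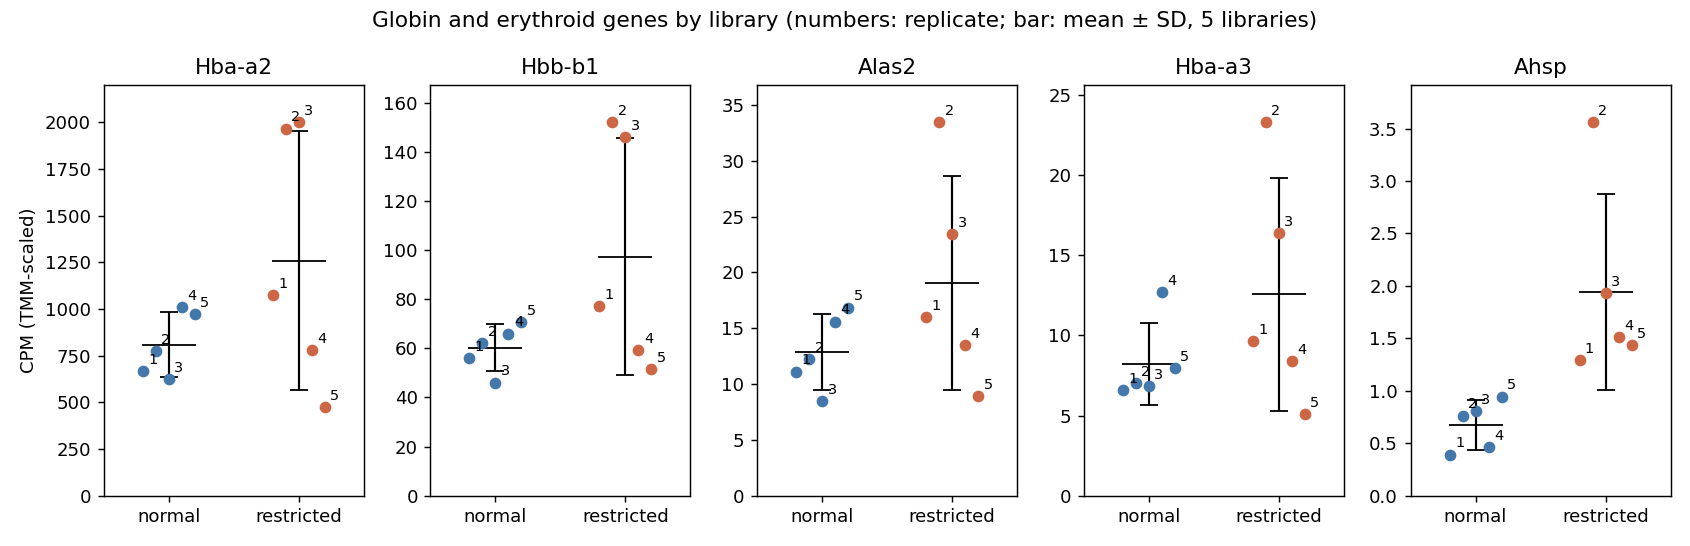
CPM (TMM-scaled, vertical axis from 0) of the 5 members in 5 normal and 5 restricted libraries; points are libraries with their replicate number, and bars give the mean ± SD. Restricted 2 and 3 stand above all normal libraries for each gene, restricted 5 is the lowest restricted library for the globins and Alas2, and for Ahsp the 2 groups do not overlap.

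Hba-a2, which encodes an adult alpha chain, was the most abundant member by FPKM. Its level in normal 1 to 5 was 667, 775, 625, 1010 and 971 CPM. In restricted 1 to 5 it was 1076, 1967, 2001, 781 and 473 CPM. Restricted 1, 2 and 3 lay above every normal library, restricted 4 lay within their range, and restricted 5 lay below all of them. The log2 fold change was 0.64 ± 0.37 (SE), with a 95% interval of -0.18 to 1.45 and an adjusted p of 0.358 in edgeR, from 809.5 ± 175 to 1260 ± 695 CPM (SD, n = 5 per group). The coefficient of variation was 55.2% among the restricted and 21.6% among the normal libraries. Restricted 5 against the normal libraries gave -0.77 ± 0.28 (adjusted p 0.147), and the fit without restricted 5 gave 0.85 ± 0.28 (adjusted p 0.127), neither past the threshold. Without restricted 2 it was 0.42, and without restricted 3 it was 0.41 (adjusted p 0.595 and 0.552).

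Hba-a3, a further adult alpha chain gene, had fewer reads, with the same restricted libraries high and low. It had 6.61, 7.001, 6.82, 12.7 and 7.95 CPM in normal 1 to 5, from 101 to 192 counts. It had 9.67, 23.3, 16.4, 8.40 and 5.11 CPM in restricted 1 to 5, from 82 to 432 counts. Restricted 2 and 3 lay above all normal libraries and restricted 5 below them, with normal 4 apart from the other normal libraries. The log2 fold change was 0.61 ± 0.38 (SE), with a 95% interval of -0.22 to 1.45 and an adjusted p of 0.387 in edgeR. Without restricted 2 it was 0.27 ± 0.31 (adjusted p 0.708). By FPKM, which divides by the length the authors used, Hba-a3 had 14.9 ± 4.83 and Hba-a2 150 ± 32.2 (mean ± SD, 5 normal libraries). The ratio of Hba-a2 to Hba-a3 counts was 101 ± 16.5 in normal and 101 ± 15.5 in restricted libraries (SD, n = 5), a difference smaller than the spread within either group.

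Hbb-b1, which encodes an adult beta chain, was the closest to the threshold of the 4 genes that did not pass. In normal 1 to 5 it had 55.9, 62.2, 46.0, 66.0 and 70.7 CPM. In restricted 1 to 5 it had 77.2, 152, 146, 59.2 and 51.5 CPM. Restricted 1, 2 and 3 again stood above all normal libraries, and restricted 4 and 5 stood among them. The log2 fold change was 0.69 ± 0.31 (SE), with a 95% interval of -0.0019 to 1.38 and a p of 0.0505, an adjusted p of 0.250 in edgeR. It was -0.22 ± 0.21 for restricted 5 alone (adjusted p 0.589) and 0.85 ± 0.28 without it (adjusted p 0.133). Each library had 9.19 to 15.3 Hba-a2 counts per Hbb-b1 count. The lowest of these ratios was that of restricted 5, and the other 9 libraries ran from 11.9 to 15.3. This ratio compares 2 rows of unequal model length and is no measure of the balance of alpha and beta chains.

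Alas2, the erythroid form of the first enzyme of heme synthesis, followed the globins. In normal 1 to 5 it had 11.1, 12.2, 8.50, 15.6 and 16.9 CPM. In restricted 1 to 5 it had 16.0, 33.4, 23.4, 13.5 and 8.91 CPM. Restricted 2 and 3 lay above the normal range, and the other 3 restricted libraries lay inside it. The log2 fold change was 0.57 ± 0.33 (SE), with a 95% interval of -0.17 to 1.31 and an adjusted p of 0.365 in edgeR. Leaving out restricted 2 gave 0.27 ± 0.27 (adjusted p 0.661). Alas1, the form used by hepatocytes, had 144 ± 55.5 CPM in normal and 128 ± 32.6 CPM in restricted libraries (SD, n = 5; log2 fold change -0.17 ± 0.26, adjusted p 0.754). Per length, Alas2 FPKM came to 22.7% to 62.6% of Alas1 FPKM in the normal libraries. In the restricted libraries this share was 70.5%, 131%, 120%, 40.4% and 24.8% in order of replicate. The share depends on the gene lengths the authors used. In CPM, Alas1 exceeded Alas2 in restricted 2 (119 against 33.4) and in restricted 3 (91.1 against 23.4).

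Ahsp, whose protein guards free alpha chains, was the rarest of the 5 and the member that changed. It had 6, 12, 12, 7 and 14 counts in normal 1 to 5, or 0.392, 0.764, 0.803, 0.462 and 0.944 CPM. It had 29, 66, 28, 23 and 23 counts in restricted 1 to 5, or 1.29, 3.56, 1.93, 1.51 and 1.43 CPM. The groups did not overlap; all 5 restricted libraries lay above all 5 normal ones for 2.91% of the genes tested. Ahsp rose 2.88-fold: its mean was 0.673 ± 0.235 CPM in the normal and 1.95 ± 0.934 CPM in the restricted group (SD, n = 5 each). The log2 fold change was 1.52 ± 0.38 (SE), with a 95% interval of 0.71 to 2.34 and an adjusted p of 0.0408 in edgeR.

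The Ahsp call rested on few reads and lay close to the threshold. Exact Poisson 95% intervals, which cover counting error only, ran from 7.65 to 23.5 counts around the highest normal count of 14 and from 14.6 to 34.5 around the lowest restricted count of 23. Log2 fold changes stayed between 1.18 and 1.67 when each library was left out in turn, and the call was kept without restricted 1 (adjusted p 0.0391) or restricted 5 (0.0413). It was lost without any of the other 8 libraries, with adjusted p of 0.0809, 0.0709, 0.0757, 0.104 and 0.0661 without normal 1 to 5, and of 0.0975, 0.0581 and 0.0554 without restricted 2, 3 and 4. Restricted 5 against the normal libraries gave 1.08 ± 0.55 (adjusted p 0.285), the same direction as in the other restricted libraries; in that comparison 0 of 5 members were called higher, against 5.11% of genes.

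**Figure D2:**
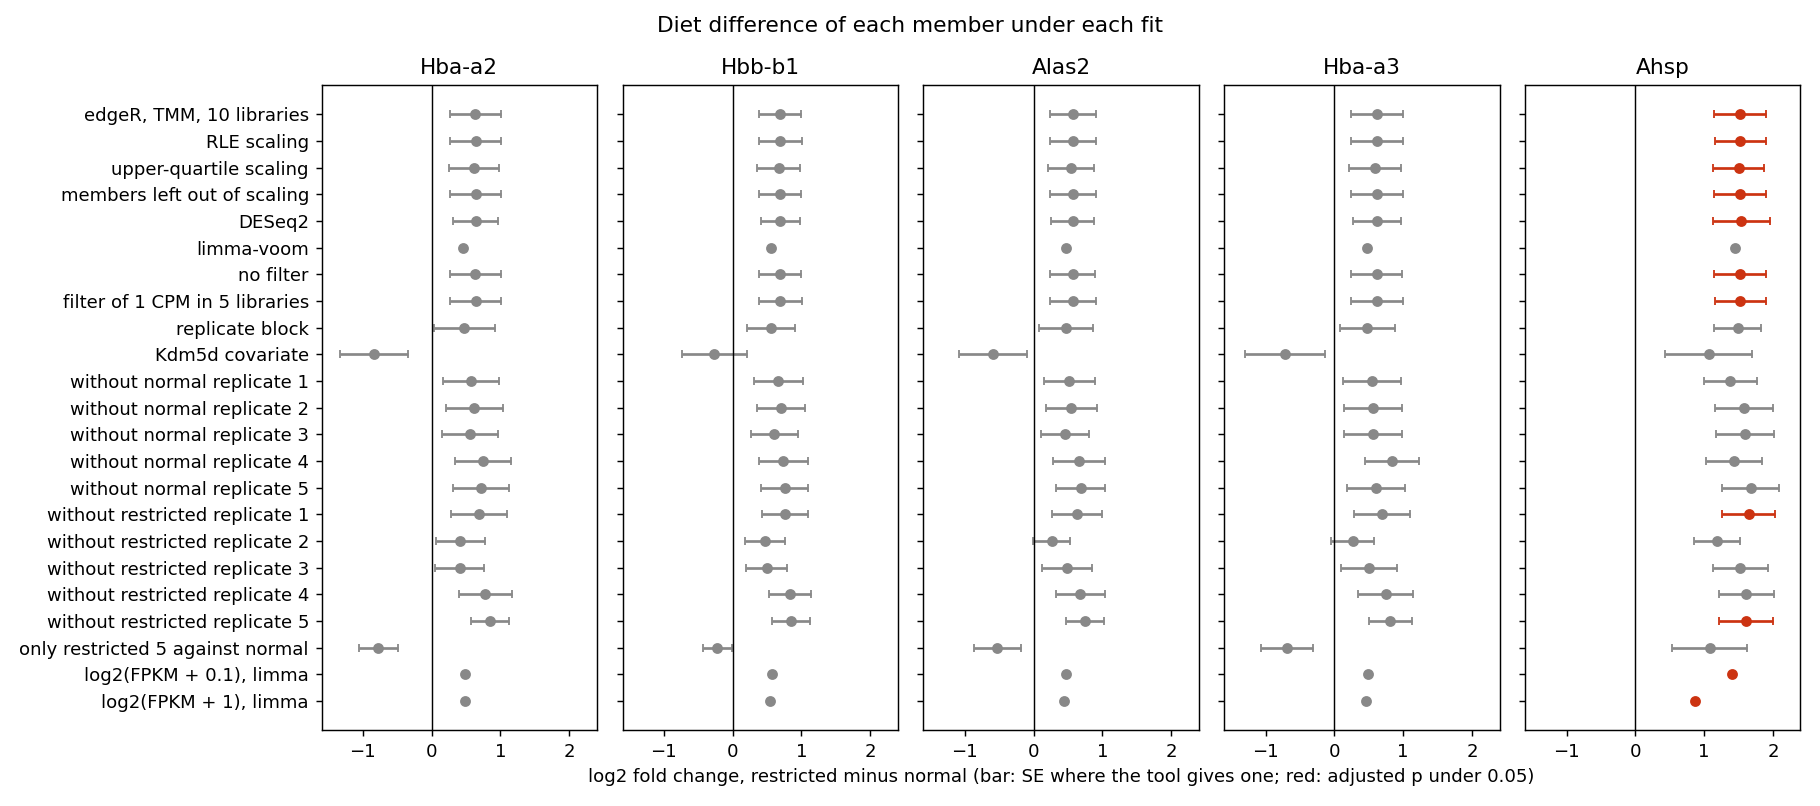
Log2 fold change, restricted minus normal (horizontal axis), of each member under the fit reported in the text and 22 alternative fits (vertical axis); bars are SE where the tool gives one, and red points have an adjusted p under 0.05. Ahsp is above 0 in every fit, and the 4 other members are below 0 with the Kdm5d covariate and for restricted 5 alone.

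The 3 globins and Alas2 varied together from library to library, and Ahsp followed them less closely in these values, a difference that was not tested. Across the 10 libraries, log2 CPM of the 3 globins and Alas2 correlated pairwise with Pearson's r of 0.906 to 0.960 and Spearman's rho of 0.879 to 0.976. Permutation p-values (100000 resamples, two-sided, adjusted over the 10 pairs of members) were at most 0.0014 for r and 0.00243 for rho. Without restricted 2 and 3, the libraries farthest from the median, r was 0.650 to 0.943 for these 6 pairs, and on deviations from the group means it was 0.898 to 0.965. For the 4 pairs with Ahsp, r was 0.569 to 0.700 (adjusted permutation p 0.0351 for Hbb-b1 and 0.0638 to 0.0877 for the others) and rho 0.479 to 0.552 (adjusted p 0.148 to 0.165). On deviations from the group means r was 0.513 to 0.587 for the pairs with Ahsp. Without restricted 2 and 3 their r was -0.245 to 0.0708, so that relation rested on those 2 libraries. Ahsp had 6 to 66 counts per library, against 82 to 36464 for the 4 other members. The part of counting error in the lower r of Ahsp was not tested.

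Ratios of counts within a library need no scaling between libraries. Alas2 counts per Ahsp count were 28.3, 16.0, 10.6, 33.7 and 17.9 in normal 1 to 5. They were 12.4, 9.39, 12.1, 8.96 and 6.22 in restricted 1 to 5. All restricted values lay below those of normal 1, 2, 4 and 5, and normal 3 lay among them. Hba-a2 counts per Ahsp count were 779 to 2184 in the normal and 330 to 1034 in the restricted libraries, again with overlap, whereas Hba-a2 counts per Alas2 count were 63.9 ± 6.11 and 64.5 ± 12.8 (SD, n = 5). The globin and erythroid genes together made up 0.0678% to 0.112% of all reads counted in each normal library, and 0.120%, 0.238%, 0.210%, 0.0791% and 0.0574% in restricted 1 to 5.

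**Figure D3:**
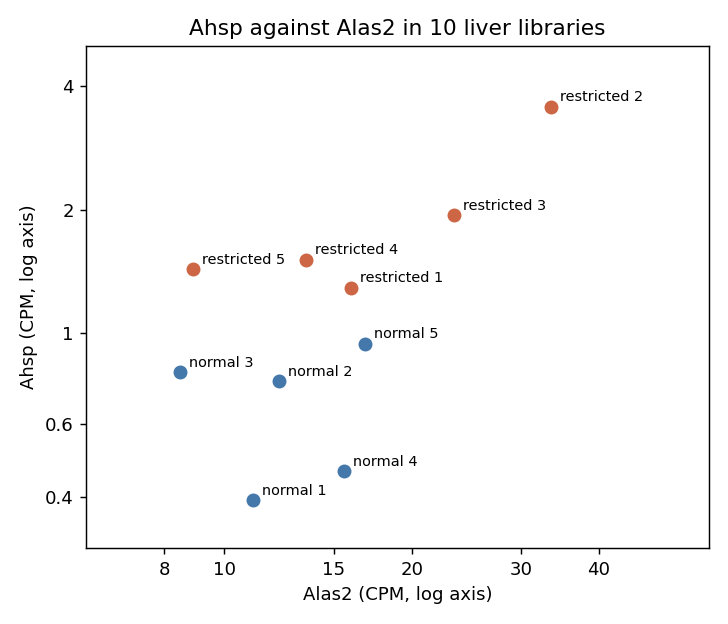
Ahsp against Alas2 in CPM, both axes logarithmic, with 1 labelled point per library (blue normal, orange restricted). The restricted libraries lie above the normal ones in Ahsp, from 1.29 to 3.56 CPM, with Alas2 from 8.91 to 33.4 CPM, against 8.50 to 16.9 CPM in the normal ones.

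Genes of the red cell membrane and its skeleton were the related list with the largest median. Its median log2 fold change was 0.81, against 0.01 over all genes tested, and for restricted 5 alone it was 0.30. In edgeR 1 of 12 members rose, 1 fell and 10 did not pass, where 1.87% of all genes were called higher and 2.22% lower. Before adjustment 5 had an edgeR p under 0.05 as higher and 1 as lower. Of all genes 10.2% had such a p as higher and 20.1% in either direction. Marker lists of other cell types had medians of 0.69 (neutrophil), 0.67 (T and B cell), 0.61 (macrophage) and 0.59 (platelet). The medians were -0.02 for endothelial and -0.03 for hepatocyte markers, so a raised median was not particular to the membrane list. Sptb, the erythroid beta spectrin of the membrane skeleton, rose from 3.91 ± 0.696 to 9.89 ± 3.21 CPM (SD, n = 5; log2 fold change 1.34 ± 0.22, adjusted p 0.00794 in edgeR). It had 3.07 to 4.95 CPM in the normal libraries and 9.18, 10.4, 15.1, 7.02 and 7.73 CPM in restricted 1 to 5, without overlap. Sptb kept its call in all 10 fits without a library, and it had a log2 fold change of 0.98 both for restricted 5 alone (adjusted p 0.0709) and with Kdm5d as a covariate (adjusted p 0.167). Dmtn, which encodes the actin-bundling protein dematin, fell from 5.89 ± 1.00 to 3.63 ± 0.379 CPM (adjusted p 0.0343); the call was lost in 8 of 10 fits without a library, with an adjusted p of at most 0.0883.

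Genes of the red cell lists differed in how closely they followed the members. Pearson's r was taken with the mean log2 CPM of the members over 10 libraries, which shares their depth and scaling. It ran from -0.485 (Dmtn) to 0.834 (Slc4a1) in the membrane list and from -0.671 (Mgst3) to 0.634 (Tmcc2) in the list of late red cells. Without restricted 2 and 3, r was -0.184 for Dmtn, 0.531 for Slc4a1, -0.300 for Mgst3 and 0.614 for Tmcc2. Of the 12 membrane genes 8 had a positive log2 fold change, as did 8 of the 18 late genes and 52.3% of all genes tested. Slc4a1, the band 3 anion exchanger of the red cell membrane, had 5.95, 9.36, 9.37, 8.65 and 12.3 CPM in normal 1 to 5. It had 16.4, 25.03, 16.8, 7.41 and 11.5 CPM in restricted 1 to 5 (log2 fold change 0.76 ± 0.29, adjusted p 0.178 in edgeR). Restricted 1, 2 and 3 were high and restricted 4 and 5 were not. Epb42 and Hemgn were chosen after their values were seen. Epb42, of the same membrane, had 0.327 to 1.45 CPM in normal and 0.394 to 2.27 CPM in restricted libraries (adjusted p 0.337), and Hemgn, a nuclear protein of red cell precursors, had 0.602 to 1.59 and 0.394 to 3.51 CPM (adjusted p 0.337). In both, restricted 2 was the highest library and restricted 4 was at or near the lowest. Kcnn4, a potassium channel of red and other blood cells, differed by 1.39 ± 0.51 on the log2 scale (adjusted p 0.156), and by 0.79 without restricted 2, which had 6.47 CPM against 0.984 to 3.43 CPM in the other restricted libraries. Gata1, Klf1 and Epor are not analysed here.

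**Figure D4:**
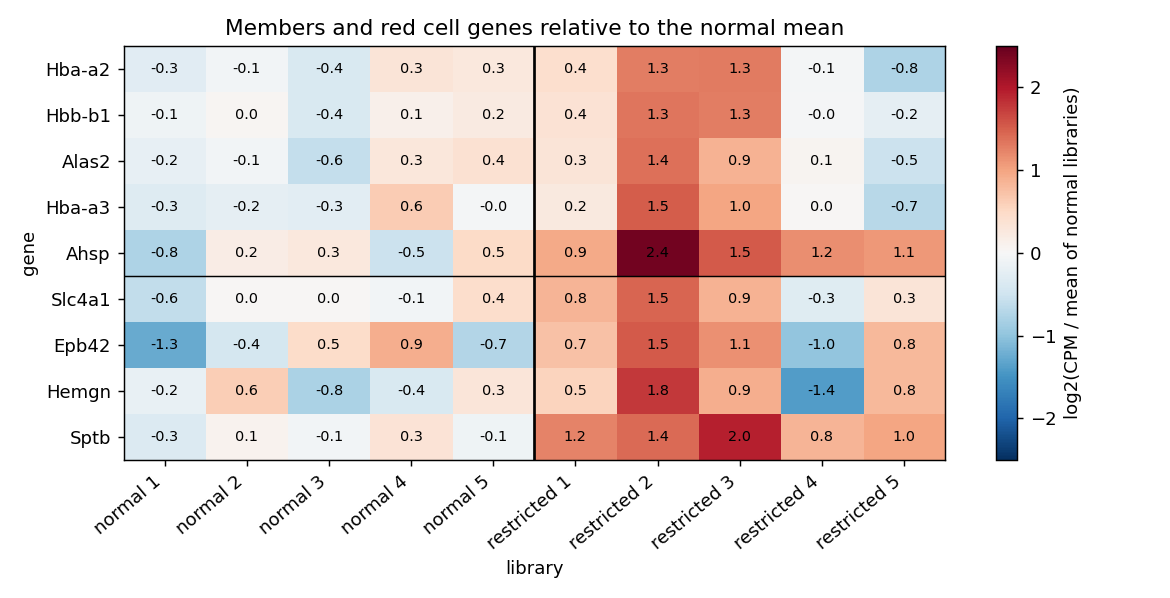
Log2 of each library's CPM over the mean of the normal libraries, for the 5 members (above the line) and 4 red cell genes (below it) in rows and 10 libraries in columns; red is above and blue below that mean. Restricted 2 and 3 are above it in all 9 rows, and Ahsp and Sptb are above it in all 5 restricted libraries. The 4 red cell genes were picked from their lists and all had positive log2 fold changes. So did 8 of the 12 membrane genes and 8 of the 18 late genes tested. Dmtn and Mgst3 of these lists, not shown, were above the normal mean in 0 restricted libraries.

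Of 12 tested genes of heme synthesis other than Alas2, 0 were called in edgeR, against 4.09% of all genes. Before adjustment 3 had an edgeR p under 0.05 (1 higher, 2 lower), against 20.1% of all genes. The DESeq2 count was 0, where DESeq2 called 1049 of 11887 genes in either direction. The median log2 fold change of the list was -0.13. Ppox and Cpox, late enzymes of the pathway, had log2 fold changes of -0.37 ± 0.12 (adjusted p 0.105) and -0.28 ± 0.09 (adjusted p 0.113). Tmem14c, a mitochondrial transporter of heme precursors, had 0.36 ± 0.16 (adjusted p 0.225), and Fech, which puts iron into heme, had 0.19 ± 0.12 (adjusted p 0.419). Hepatocytes also express this pathway, and its summed level was 942 to 1024 CPM in normal and 896 to 1021 CPM in restricted libraries.

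Of 7 transcription factors of red cell development with a row in the table, 0 were called in edgeR, against 4.09% of all genes. Before adjustment 4 had an edgeR p under 0.05 (3 higher, 1 lower), against 20.1% of all genes. The DESeq2 count was 3, where DESeq2 called 1049 of 11887 genes in either direction. The median log2 fold change of the list was 0.11. Zfpm1, the GATA1 cofactor FOG1, had 0.40 ± 0.12 (adjusted p 0.0937) and Lyl1, a blood cell factor related to Tal1, had 0.88 ± 0.27 (adjusted p 0.0956). Nfe2, which activates globin genes, had -2.17 ± 0.66 (adjusted p 0.107), with 24.2 CPM in normal 4 against 2.04 to 7.75 CPM in the other normal and 1.025 to 2.49 CPM in the restricted libraries. Without normal 4 it was -1.20 ± 0.38 (adjusted p 0.139).

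Among 18 genes of late red cells and reticulocytes 0 rose and 1 fell, against 1.87% and 2.22% of all genes. The median log2 fold change was -0.03. The gene that fell was Mgst3, a microsomal glutathione transferase that hepatocytes also express, from 76.5 ± 10.3 to 39.8 ± 5.30 CPM (SD, 5 libraries each; adjusted p 0.00266 in edgeR); with Kdm5d as a covariate its adjusted p was 0.110. Bnip3l, which directs the removal of mitochondria in reticulocytes, differed by 0.29 ± 0.08 on the log2 scale (adjusted p 0.0656).

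**Figure D5:**
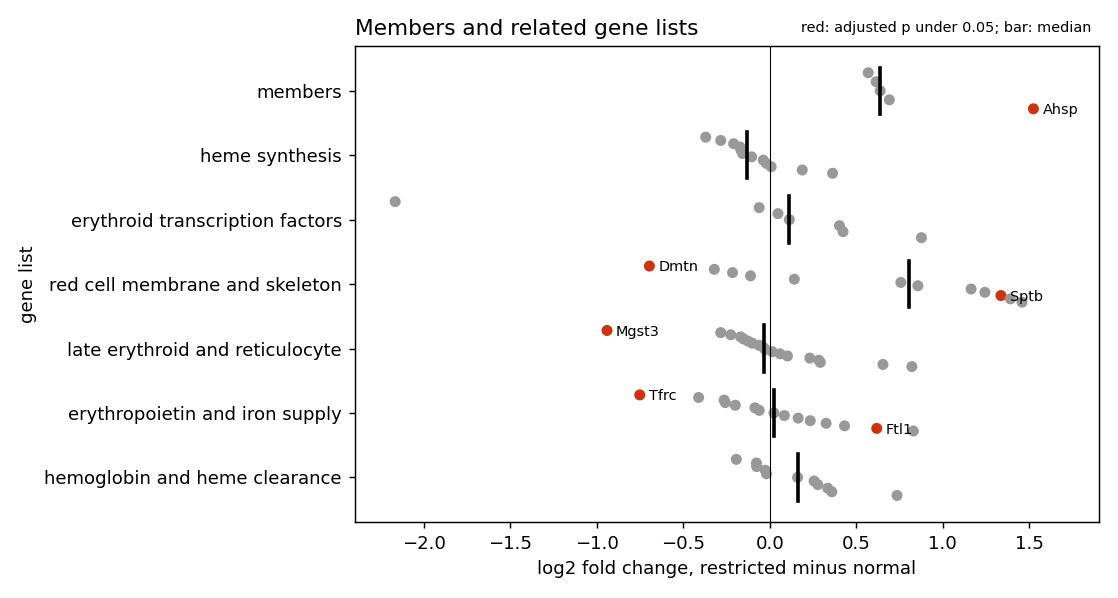
Log2 fold change, restricted minus normal (horizontal axis), of the members and of the genes of 6 related lists; each point is a gene, black bars are medians, and named red points have an adjusted p under 0.05. The median of the red cell membrane list is 0.81, and those of the other 5 lists lie between -0.13 and 0.16. Marker lists of other cell types, not shown, had medians of -0.03 to 0.69.

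In the list of erythropoietin and iron supply, 1 of 15 tested rows rose and 1 fell, against 1.87% and 2.22% of all genes. The median log2 fold change was 0.02. Tfrc, the transferrin receptor through which red cell precursors and other cells take up iron, fell from 116 ± 25.5 to 68.8 ± 11.3 CPM (SD, 5 libraries each; adjusted p 0.0207 in edgeR). All 5 restricted libraries, at 51.3 to 78.8 CPM, lay below the 5 normal ones, at 88.9 to 158 CPM, which held for 3.44% of the genes tested; without normal 5 the adjusted p was 0.0503. Ftl1, a ferritin light chain gene with 2 rows in the table, rose in its abundant row from 1084 ± 89.0 to 1663 ± 362 CPM (adjusted p 0.0430), and kept the call in 1 of 10 fits without a library, with an adjusted p of up to 0.110. Restricted 5 had 1107 Ftl1 CPM, within the normal range of 995 to 1215, and with Kdm5d as a covariate the log2 fold change of Ftl1 was 0.02 (adjusted p 0.980). That covariate also ended the Tfrc call, at -0.71 (adjusted p 0.236). Kit, the stem cell factor receptor, had 0.43 ± 0.16 (adjusted p 0.149).

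Of 11 tested genes that clear hemoglobin and heme, 0 were called in edgeR, against 4.09% of all genes. Before adjustment 1 had an edgeR p under 0.05, against 20.1% of all genes. The DESeq2 count was 0, where DESeq2 called 1049 of 11887 genes in either direction. The median log2 fold change of the list was 0.16. Hp and Hpx, plasma proteins that bind free hemoglobin and heme, had log2 fold changes of 0.28 ± 0.26 (adjusted p 0.593) and 0.26 ± 0.26 (adjusted p 0.622). In restricted 4 they reached 15930 and 14045 CPM, against 5012 to 10513 and 5212 to 9877 CPM in the other 9 libraries. Cd163, the hemoglobin receptor of macrophages, had 0.36 ± 0.16 (adjusted p 0.228), Hmox1, which opens the heme ring, had 0.16 ± 0.20 (adjusted p 0.696), and the values for Blvra and Marco were 0.33 ± 0.18 and 0.74 ± 0.38 (adjusted p 0.306 and 0.307). Cygb, a globin of stellate cells and the sole tested gene of the list of other globins, had 8.42 ± 0.807 and 8.92 ± 2.39 CPM (adjusted p 0.824).

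Markers of other blood and liver cells are given beside these values, and their part in the results was not tested. All 8 macrophage markers had positive log2 fold changes, as did 52.3% of all genes, with a median of 0.61. They had 0 calls in edgeR (5 with an unadjusted p under 0.05, 3 called by DESeq2, against 1049 of 11887 genes in either direction). Their summed level was 750 to 1005 CPM in normal and 851 to 2079 CPM in restricted libraries, highest in restricted 5, which had the lowest globins of the restricted libraries. Next came restricted 2 with 1583 CPM, a library in which the globins were high. The smallest adjusted p of the list, 0.133 to 0.169, were those of Cd5l, C1qa and Csf1r. The 6 tested neutrophil markers summed to 5.42 to 24.8 CPM in normal and 7.32 to 49.996 CPM in restricted libraries, highest in restricted 4, and Csf3r, S100a9 and Camp had adjusted p of 0.154 to 0.592. The 4 T and B cell markers (Cd8a, Cd79b, Cd3e and Cd79a) summed to 4.06 to 6.94 and 3.30 to 16.6 CPM, and the 2 platelet markers (Pf4 and Itga2b) to 22.5 to 28.2 and 20.8 to 41.3 CPM, each highest in restricted 5. The platelet sum was mostly Itga2b, which had 40.2 CPM in restricted 5. Pf4 was highest in restricted 2, at 2.59 CPM against 1.06 CPM in restricted 5. The 4 endothelial markers (Pecam1, Clec4g, Kdr and Stab2) summed to 284 to 335 and 261 to 344 CPM. Of these neutrophil, lymphocyte, platelet and endothelial lists 0 genes were called in edgeR, with 1 in each list at an unadjusted p under 0.05 and 0 called by DESeq2. Over all genes, edgeR called 4.09%, and 20.1% had an unadjusted edgeR p under 0.05.

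Cell cycle genes, which dividing red cell precursors share with all dividing cells, had a median log2 fold change of -0.44. Of 14 tested 0 rose and 2 fell, against 1.87% and 2.22% of all genes. Those that fell were Rrm2 and Tyms, of nucleotide synthesis, with log2 fold changes of -1.98 ± 0.44 and -0.46 ± 0.11 (adjusted p 0.0381 and 0.0408). Without a library they passed in 3 and 1 of 10 fits. The mitotic kinase gene Aurkb had -0.78 ± 0.30 (adjusted p 0.170). The summed level of the list was 209 to 295 CPM in the normal libraries and 233.6, 186, 144, 83.7 and 185.5 CPM in restricted 1 to 5, so it was lowest in restricted 4 and did not follow the order of the globins.

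Among 11677 named genes whose mean log2 CPM was 0 or more, those most like the members were picked by Pearson's r between their log2 CPM and the mean log2 CPM of the 5 members over 10 libraries. They were RGD1304587 (r 0.922, rho 0.915), Tnks1bp1 (0.889, 0.927), Ybx3 (0.888, 0.745), the lipoxygenase gene Alox15 (0.887, 0.661), the platelet chemokine gene Pf4 (0.884, 0.830) and Pamr1 (0.876, 0.515). These are the highest of many values and carry no test. Without restricted 2 and 3, r was 0.769 for RGD1304587 and 0.884 for Tnks1bp1, and 0.109 to 0.578 for the other 4. Alox15 had 19.5, 33.2, 23.3, 10.2 and 14.5 CPM in restricted 1 to 5 against 10.9 to 14.1 CPM in the normal libraries, and Pf4 had 1.11, 2.59, 1.87, 0.919 and 1.06 against 0.392 to 0.944 CPM. None of the 6 was called (adjusted p 0.107 to 0.459 in edgeR).

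In the authors' deposited table, Ahsp differed by 1.54 on the log2 scale with an adjusted p of 0.00596, and it was the sole member called by that adjusted p, as were 4.16% of all genes as higher. The authors' deposited table gave Hbb-b1 0.69 (p 0.0148, adjusted p 0.114), Hba-a2 0.64 (p 0.0488, adjusted p 0.229), Hba-a3 0.62 (p 0.0813) and Alas2 0.57 (p 0.0692). By the authors' rule of p under 0.05 with an absolute log2 fold change above 1, Ahsp alone of the 5 was called, as were 2.57% of all genes as higher in the authors' deposited table.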

How the data were processed

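RNA of 10 rat liver samples was sequenced on a NovaSeq from NEBNext Ultra libraries, per the labels' protocols. Per the submitters' processing notes, reads were handled with bcl2fastq, fastp and HTSeq on build rn7; HISAT2 and a quality filter of Q30 are named in the series' design text. The sources used here give no versions, annotation, strand setting or rule for reads shared by gene copies. The authors deposited 1 table of 12555 genes with whole-number counts per library, FPKM values (scaled by library size and gene length), and their own comparison with fold, log2 fold change, p-value and adjusted p-value.

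Counts of 14936156 to 22104957 per library were scaled with TMM factors and tested with edgeR 4.0.16 (R 4.3.3; quasi-likelihood, robust). Of 12555 genes 188 were removed by a filter with a minimum count of 10, which left 12367. Adjusted p-values are Benjamini-Hochberg over these genes. SE values are derived from the fitted coefficient and its test. Correlations used log2 CPM with a prior count of 2, and permutation p-values came from scipy 1.17.1. Alternatives used other scalings and filters, DESeq2 1.42.0, limma 3.58.1 on counts or on log2(FPKM + 0.1) or log2(FPKM + 1), a replicate block, Kdm5d as a covariate, restricted 5 alone, and the removal of each library. The edgeR step was tested on simulated data.

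Genes named in the text are the members, fixed genes, the 3 of each of 14 lists with the smallest p and the 6 genes most like the members. Epb42, Hemgn, Cd79a, Stab2 and Tmcc2 were named in addition, after their values were seen, Tmcc2 for the highest r of its list. The members and lists were chosen with earlier results of these data known. Within a diet, no 2 libraries agreed within sampling noise.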

Additional observations from a re-analysis of the deposited data

Results flagged for a closer look

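In groups of 5 libraries, a library was marked when its gap to the nearest other library exceeded 0.71 of the range of the group (Dixon's 95% limit). Chance marks about 1 in 20 groups, and 8 of 116 groups were marked. Among the members, Hba-a3 had 12.7 CPM in normal 4, next to 7.95 CPM in the nearest normal library, and Ahsp had 3.56 CPM in restricted 2, next to 1.93 CPM. Without restricted 2 the Ahsp log2 fold change was 1.18, with an adjusted p of 0.0975 in edgeR.

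Restricted 5 was marked for Kdm5d at 19.3 CPM, where the other 4 restricted libraries had 0, for the hemoglobin receptor gene Cd163 at 155.5 CPM (nearest 107), for the neutrophil marker Csf3r at 3.80 CPM (nearest 2.37) and for the endothelial marker Clec4g at 9.78 CPM (nearest 20.3). Nfe2 had 24.2 CPM in normal 4 (nearest 7.75), and Dmtn had 4.28 CPM in restricted 1 (nearest 3.59).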

How the results depend on the processing

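The direction of Ahsp held under all 22 alternatives, but its call did not: the log2 fold change was 1.45 with limma-voom (adjusted p 0.0665), 1.06 with Kdm5d as a covariate (0.406) and 1.08 for restricted 5 alone (0.285), and 1.18 to 1.67 when 1 library was left out (0.0391 to 0.104). Of the other members none was called in any of these fits. With Kdm5d as a covariate the log2 fold changes turned to -0.83 for Hba-a2, -0.27 for Hbb-b1, -0.59 for Alas2 and -0.73 for Hba-a3, and for restricted 5 alone to -0.77, -0.22, -0.53 and -0.68. Both fits rest on restricted 5 as the sole restricted library with Kdm5d reads, so diet and likely sex cannot be told apart in the other libraries. Counts as low as those of Ahsp limit the precision of its value.

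Libraries that share a replicate number did not deviate together (r of 0.0834, 0.121, 0.0897, 0.00421 and -0.185 for numbers 1 to 5), and those of numbers 1 and 3 alone correlated best with their own number. With the replicate number as a block, 265 genes were called in place of 506, and Ahsp had 1.49 (adjusted p 0.0633); the lists then had 1 call for red cell membrane, 1 for iron supply, 0 for hepatocyte markers and 0 for cell cycle.

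The number of genes called was 1049 with DESeq2, 121 with the Kdm5d covariate, 802 for restricted 5 alone and 213 to 470 with 1 library left out; it fell to 265, 226, 213, 231 and 301 without normal 3, 4 and 5 and restricted 2 and 4. DESeq2 called 3 erythroid transcription factors, 2 late erythroid genes and 3 macrophage markers. Hepatocyte markers had 0 calls with RLE scaling, limma-voom and log2(FPKM + 0.1), and iron supply had 1 with upper-quartile scaling, limma-voom and log2(FPKM + 0.1). Cell cycle had 1 call with limma-voom and with both FPKM fits, and log2(FPKM + 1) gave 0 for red cell membrane and 2 for late erythroid genes. The Kdm5d covariate gave 3 macrophage and 1 T and B cell call, and 0 for red cell membrane, late erythroid, iron supply, hepatocyte and cell cycle genes. Restricted 5 alone gave 7 macrophage, 2 clearance, 1 erythroid transcription factor, 1 platelet and 1 T and B cell call, and 0 for red cell membrane, iron supply, hepatocyte and cell cycle genes. With 1 library left out, calls ran from 1 to 2 for red cell membrane, 0 to 2 for iron supply and for cell cycle, and 0 to 1 for hepatocyte markers, heme synthesis and erythroid transcription factors.

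Some named genes that were not called changed sign. With the Kdm5d covariate the log2 fold change was -0.23 for Alb, -0.075 for Fech, 0.20 for Alas1, -0.26 for S100a9, -0.12 for Camp, -0.24 for Tnks1bp1, -0.48 for Ybx3 and -0.064 for Pamr1. For restricted 5 alone it was -0.22 for Alb, -0.076 for Fech, 0.22 for Alas1, -0.21 for S100a9, -0.051 for Camp, -0.23 for Tnks1bp1, -0.44 for Ybx3 and -0.050 for Pamr1, and with limma-voom -0.054 for Camp. With 1 library left out, values ran from -0.062 to 0.11 for Alb, -0.31 to 0.056 for Alas1, -0.0073 to 0.42 for Hpx, -0.077 to 0.19 for Cygb, -0.062 to 0.23 for Itga2b, -0.16 to 0.79 for Cd3e and -0.0035 to 0.079 for Kdr. Where no cause is named, the cause was not tested.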
